A study of Mus musculus with 12 samples.

Results

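Transcripts of 4 genes of the neurotrophin system were followed through 3 regions of the mouse hippocampus: the neurotrophins Bdnf and Ntf3 and the receptor genes Ntrk2 (TrkB) and Ntrk3 (TrkC). They were the rows of the UMI count table that carried one of these symbols, 4 of 32546 genes. Photo-isolation chemistry (PIC) uncages a reverse transcription primer with light only in the irradiated part of a section, so that the CEL-seq2 library reads the 3′ ends of polyadenylated RNA from that part alone. CA1, CA3 and the dentate gyrus (DG) of male ICR mice aged 8 weeks were each irradiated in 4 histological conditions. Fresh-frozen tissue was permeabilized either with 0.1 N HCl for 5 min after Triton X-100 or with TE buffer at 70 °C for 1 h, and frozen and paraffin sections of tissue fixed with 4% PFA were permeabilized with TE. All sections were also fixed briefly with PFA on the slide. Each of the 12 combinations of region and condition was 1 library of 4 barcoded replicates, which gave 48 replicates in all. Region and library therefore coincide within a condition and cannot be told apart, and each region has 1 library per condition. Condition and library coincide within a region in the same way, so differences between conditions cannot be told apart from differences between libraries. The paper describes the replicates as biological but the sources used here do not tie them to mice, so the p-values measure the spread between these replicates. The series description has CA2 where sample titles and paper have CA3, and CA3 was used.

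Neurotrophins are secreted growth factors that support neurons and modify synapses. BDNF binds TrkB and NT-3, the product of Ntf3, binds mainly TrkC. Both receptors are tyrosine kinases that signal through adaptor proteins to the Ras-MAPK, PI3K-AKT and phospholipase C pathways, and all neurotrophins also bind the receptor p75, the product of Ngfr. In the hippocampus BDNF is known for activity-dependent transcription and for its part in the mossy fibre pathway from DG to CA3, NT-3 is known as a product of granule cells and of CA2, and a truncated TrkB without the kinase is abundant in astrocytes.

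In GENCODE M21 (GRCm38) Bdnf (ENSMUSG00000048482) lies on the plus strand of chromosome 2, at 109674700 to 109727007, with 11 coding transcripts that begin at 9 places and share 1 3′ end. Ntf3 (ENSMUSG00000049107) lies on the minus strand of chromosome 6, at 126101412 to 126166910, with 3 coding transcripts. Ntrk2 (ENSMUSG00000055254) lies on the plus strand of chromosome 13, at 58806569 to 59133970, and Ntrk3 (ENSMUSG00000059146) on the minus strand of chromosome 7, at 78175959 to 78738012. Their coding transcripts have 6 different 3′ ends each. Both genes are known to make forms with and without the kinase, and the table holds 1 sum per gene, so these forms were not told apart. Counting did not use the strand, and 9 annotated genes overlap members. The overlapping gene with the most UMIs, Gm44607 within Ntrk3, had 187 UMIs over all 48 replicates against 11529 for Ntrk3.

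Totals per replicate ranged from 127253 to 933756 UMIs with HCl, from 294445 to 1111804 in fresh-frozen TE sections, from 52800 to 307145 in fixed frozen sections and from 35932 to 223055 in paraffin sections. The marker lists of CA1, CA3 and granule cells were highest in sum in the region of their label. Single genes did not all do so. Over all conditions 4 of 5 CA3 genes were called higher in CA3 than in DG, and Iyd was not detected in CA3 of paraffin sections. Summed CPM (UMIs per 1000000 UMIs of the replicate) of 5 CA1 genes was 475 to 1126 on average in CA1 groups and 69.6 to 256 elsewhere, that of 5 CA3 genes 400.5 to 599 in CA3 and 40.3 to 291 elsewhere, and that of 6 granule cell genes 1007 to 2207 in DG and 182 to 374 elsewhere. The other marker lists had UMIs in all groups. Mean summed CPM was 284 to 1293 for 5 CA2 genes, 1768 to 6498 for 8 astrocyte genes and 2245 to 16200 for 6 oligodendrocyte genes. It was 692 to 1148 for 6 interneuron genes, 63.8 to 181 for 6 microglia genes and 58.4 to 235 for 5 endothelial genes. The CA2 sum was highest in DG in every condition, at 577 to 1293 CPM, so it was not read as a sign of CA2 cells. Over all conditions its gene Pcp4 had a log2 fold change of -1.39 for CA1 over DG, against 0.725 for Rgs14. Bdnf, Ntrk2 and Ntrk3 had UMIs in all 48 replicates, 3670, 15586 and 11529 in sum. Ntf3 had 315 UMIs in 33 replicates, so that its levels carry a large counting error.

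Bdnf was lower in CA1 than in either other region, Ntf3 and Ntrk3 were highest in DG, and for Ntrk2 a difference was called only between CA1 and DG in fresh-frozen TE sections. Over all 4 conditions together, edgeR's quasi-likelihood test called 3 of the 4 members between CA1 and DG (Bdnf, Ntf3 and Ntrk3), where 18.0% of 18884 genes tested were called at an adjusted p under 0.05. It called 2 between CA3 and DG (Ntf3 and Ntrk3, background 14.3%) and 1 between CA1 and CA3 (Bdnf, background 9.25%). In bulk RNA of a region, fewer cells of a type and less RNA per cell cannot be told apart.

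Within HCl sections the test called Bdnf and Ntrk3 between CA1 and DG (background 17.0% of genes), Ntf3 and Ntrk3 between CA3 and DG (8.99%) and Bdnf between CA1 and CA3 (9.13%). Within fresh-frozen TE sections it called Bdnf, Ntf3 and Ntrk2 between CA1 and DG (10.1%), Ntf3 between CA3 and DG (7.91%) and Bdnf between CA1 and CA3 (4.40%). Fixed frozen sections gave calls for Bdnf and Ntf3 between CA1 and DG (8.14%), Ntf3 between CA3 and DG (9.27%) and Bdnf between CA1 and CA3 (7.20%). In paraffin sections edgeR and DESeq2 both called 0 members in the 3 comparisons, where edgeR called 3.29%, 3.21% and 2.36% of genes, and 1 member in each had an unadjusted p under 0.05. Ntf3 was not tested in the paraffin comparisons, nor between CA1 and CA3 in fixed frozen sections, because it had fewer than 10 UMIs there.

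**Figure D1:**
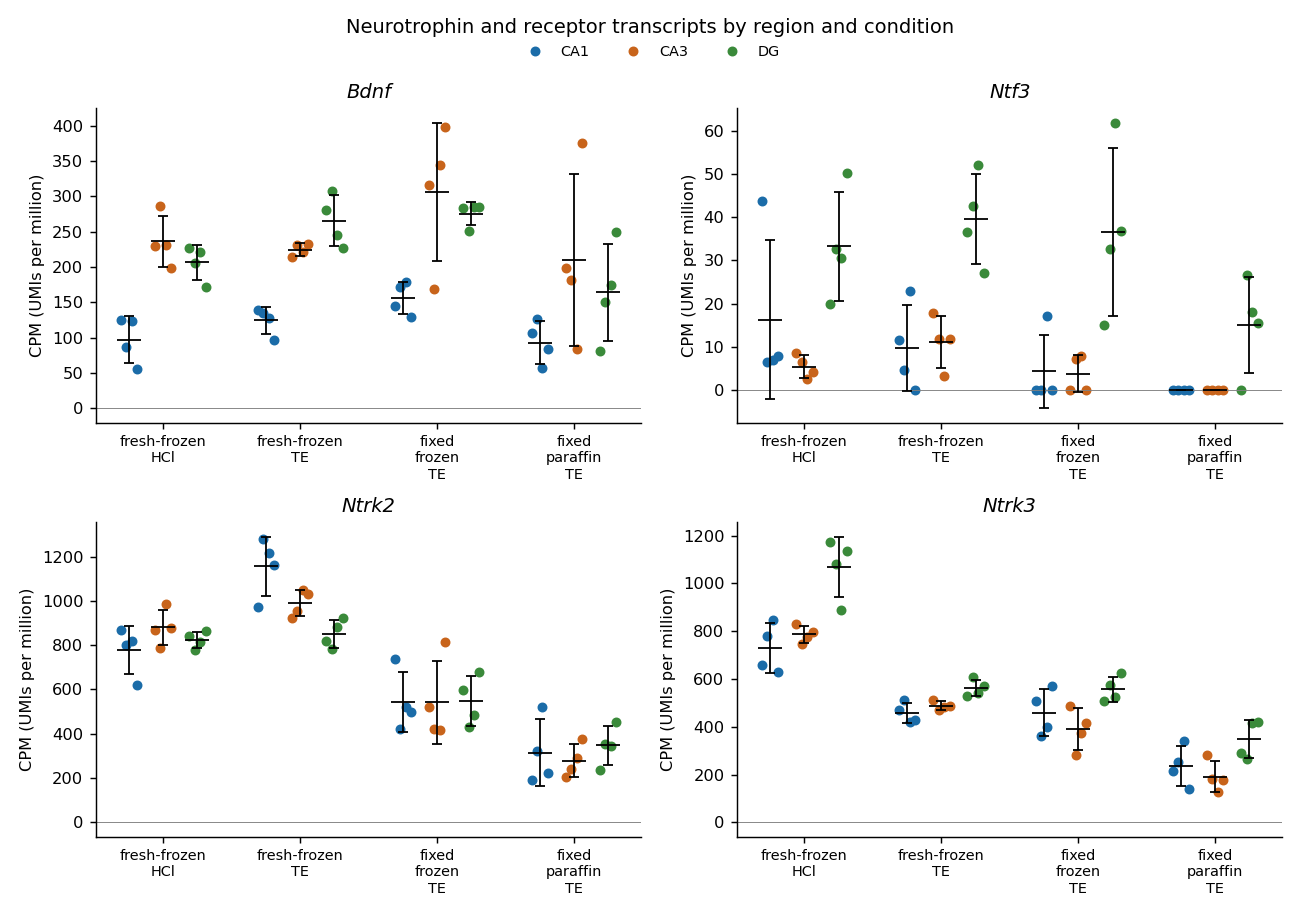
CPM (UMIs per 1000000 UMIs) of Bdnf, Ntf3, Ntrk2 and Ntrk3 in every replicate, by histological condition (x axis) and region (colour), on linear axes with a scale of its own for each gene. Points are the 4 replicates of a group, and black bars show mean ± SD. Bdnf in CA1 lies lowest of the 3 regions by mean in every condition, from 93.2 to 156 CPM, and Ntf3 in DG lies highest by mean in every condition.

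Bdnf, the most widely expressed neurotrophin of the adult brain, was at about the same level in CA3 and DG and clearly lower in CA1. In HCl sections the CA1 replicates 1 to 4 had 124.5, 86.9, 123 and 55.0 CPM. CA3 replicates had 230.5, 286, 231 and 198 CPM, and DG replicates had 227, 206, 221 and 172 CPM. All 4 CA1 replicates lay below all replicates of the other regions, and the lowest CA1 value came from the replicate with the smallest total of its condition, with 7 Bdnf UMIs.

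In fresh-frozen TE sections Bdnf stood at 139, 136, 128 and 97.1 CPM in CA1, at 214, 231, 222 and 232.5 CPM in CA3 and at 281, 308, 245 and 227.5 CPM in DG. CA1 was again below both regions with no overlap, whereas CA3 and DG overlapped. In fixed frozen sections the CA1 replicates had 145, 171, 179 and 129 CPM, the CA3 replicates 316, 169, 344 and 398 CPM and the DG replicates 283, 251, 285 and 284 CPM. DG stayed above CA1 without overlap there, and 1 CA3 replicate fell among the CA1 values.

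Paraffin sections gave Bdnf values of 107, 126, 56.5 and 83.5 CPM in CA1, 199, 181, 83.7 and 376 CPM in CA3 and 81.4, 151, 175 and 249 CPM in DG. They rested on 19, 61 and 84 UMIs per region, and the regions overlapped.

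Over all conditions the log2 fold change of Bdnf in CA1 was -0.98 relative to DG (SE 0.13, adjusted p = 2.93e-10 by edgeR) and -1.01 relative to CA3 (SE 0.13, adjusted p = 1.41e-10). The mean over the 16 replicates of a region was 118 ± 35.5 CPM (SD) in CA1, 244.5 ± 81.4 in CA3 and 228 ± 59.9 in DG. CA3 and DG differed by 0.04 (SE 0.12, adjusted p = 0.900). In fresh-frozen sections the CA1 to DG difference was -0.98 with HCl (SE 0.20, adjusted p = 0.000333), and with TE it was -1.05 (SE 0.17, adjusted p = 1.77e-05). It was -0.81 (SE 0.25, adjusted p = 0.0173) in fixed frozen and -0.79 (SE 0.40, adjusted p = 0.341) in paraffin sections.

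Against CA3 the CA1 values of Bdnf were -1.22 (SE 0.19, adjusted p = 2.82e-05) in HCl sections, -0.84 (SE 0.16, adjusted p = 0.00118) in fresh-frozen TE sections, -0.89 (SE 0.27, adjusted p = 0.0177) in fixed frozen and -1.11 (SE 0.45, adjusted p = 0.224) in paraffin sections. CA1 had the lower level in all 4 conditions in both comparisons, and the paraffin SE was the largest of each. Both fixed frozen calls for Bdnf were narrow. Leaving out CA1 replicate 1, 2 or 4 or DG replicate 1 or 3 gave -0.83 to -0.71 against DG with adjusted p between 0.0504 and 0.0730, and leaving out CA3 replicate 1, 3 or 4 gave -0.84 to -0.80 against CA3 with adjusted p between 0.0657 and 0.0841. DESeq2 gave -0.77 and -0.93 (adjusted p = 0.104 and 0.0983), and thinning to the smallest total gave -0.81 and -1.025 (adjusted p = 0.200 and 0.0518).

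Markers of other cells differed between the regions as well. Of 6 oligodendrocyte genes 6 were higher in CA1 than in DG (median 1.375), 6 were higher in CA3 than in DG (median 1.02) and 2 were higher in CA1 than in CA3 (median 0.39). Their mean summed CPM in HCl sections was 12040 in CA1, 8520 in CA3 and 3947 in DG. Of 8 astrocyte genes 3 were lower than in DG both in CA1 (median -0.38) and in CA3 (median -0.28). The part of these markers in the region differences of the 4 members was not tested.

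**Figure D2:**
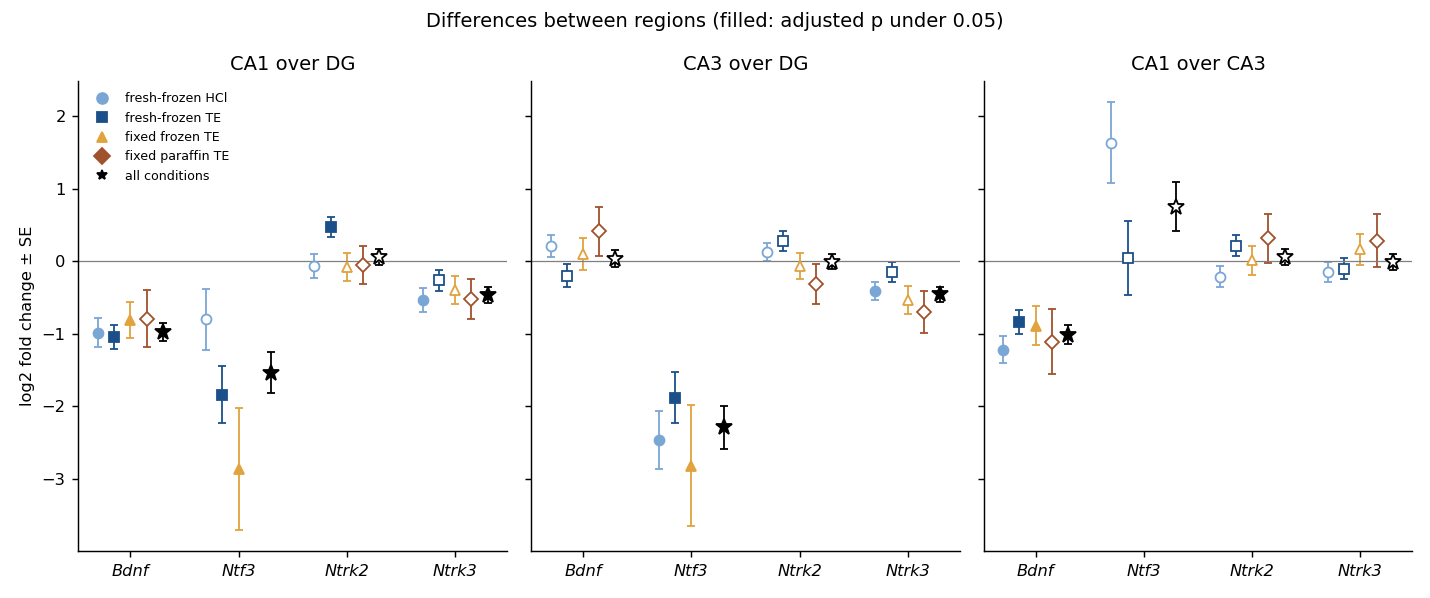
Log2 fold changes (y axis, ± SE) of the 4 genes between pairs of regions, within each histological condition and over all 4 conditions (stars). Filled symbols passed an adjusted p of 0.05 and missing symbols mark comparisons with too few Ntf3 UMIs. Bdnf in CA1 sits between -0.79 and -1.22 against both other regions. Over all conditions Ntf3 sits lowest against DG, at -1.54 for CA1 and -2.29 for CA3. Without HCl CA1 replicate 1 the CA1 value is -2.12, which is not drawn.

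Ntf3, which encodes NT-3, was highest in DG. In HCl sections the DG replicates had 7, 21, 24 and 12 Ntf3 UMIs, or 19.9, 32.6, 30.5 and 50.2 CPM. CA3 replicates had 8, 6, 2 and 3 UMIs, or 8.58, 6.43, 2.47 and 4.10 CPM, all below DG. CA1 replicates 2 to 4 had 4, 6 and 1 UMIs, or 6.56, 6.90 and 7.86 CPM, whereas CA1 replicate 1 had 32 UMIs, or 43.8 CPM, which lay within the DG range.

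The same CA1 replicate 1 stood apart in the marker lists. Its summed CPM of CA2 genes was 780 against 305 to 401 in the other 3 replicates, that of CA3 genes was 242 against 77.0 to 110.0, and that of CA1 genes was 636, the lowest of the 4. As above, the CA2 sum was not read as a sign of CA2 cells. The granule cell sum of this replicate, 207 CPM, lay within the 149 to 269 CPM of the others. The part of these markers in its Ntf3 value was not tested. With this replicate the CA1 to DG difference of Ntf3 in HCl sections was -0.80 (SE 0.43, adjusted p = 0.203), and without it -2.18 (adjusted p = 0.000642).

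In fresh-frozen TE sections the DG replicates had 18, 25, 31 and 8 Ntf3 UMIs, or 36.6, 42.6, 52.0 and 27.2 CPM. CA1 replicates had 10, 3, 17 and 0 UMIs, or 11.5, 4.52, 23.0 and 0 CPM. CA3 replicates had 12, 13, 3 and 6 UMIs, or 17.7, 11.7, 3.22 and 11.7 CPM. All DG replicates lay above all CA1 and CA3 replicates, while CA1 and CA3 overlapped. CA1 replicate 3, the highest in Ntf3 of its group, was like HCl CA1 replicate 1 in the CA1, CA2 and CA3 lists. Its summed CPM of CA2 genes was 510.5 against 273 to 388 in the other replicates. That of CA3 genes was 203 against 46.7 to 89.6, and that of CA1 genes 777 against 1169 to 1263. Its granule cell sum was also the highest of its group, at 309 against 226 to 275 CPM. Without this replicate the difference of CA1 from CA3 turned to -0.66 (adjusted p = 0.698 by edgeR). The part of these markers in its Ntf3 value was also not tested. The difference from DG was -1.84 (SE 0.39, adjusted p = 0.000898) for CA1 and -1.88 (SE 0.36, adjusted p = 0.000602) for CA3. In HCl sections CA3 differed from DG by -2.46 (SE 0.40, adjusted p = 0.000144). When the 8 replicates were thinned to their smallest total, the CA3 call in fresh-frozen TE sections was lost (-1.14, adjusted p = 0.120).

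In fixed frozen sections the DG replicates had 2, 10, 15 and 4 Ntf3 UMIs, or 14.9, 32.6, 61.9 and 36.7 CPM. CA1 had 2 UMIs in replicate 3 and 0 in the others, and CA3 had 1 UMI in replicates 2 and 3 and 0 in the others. A count of 0 allowed up to 16.6 to 55.35 CPM in those CA1 replicates (3 counts of the total, counting error only), so that single replicates could not exclude the lower DG values. The fitted differences from DG were -2.86 (SE 0.83, adjusted p = 0.01205) for CA1 and -2.82 (SE 0.83, adjusted p = 0.0124) for CA3. Leaving out 1 replicate moved the CA1 value to between -5.64 and -2.13. The former came without CA1 replicate 3, when all remaining CA1 replicates were at 0, so that it is no bound on the fold. Without DG replicate 3 both were no longer called, with adjusted p of 0.129 and 0.124, and without CA1 replicate 2 the first was 0.165. Thinned to the smallest total, the CA3 difference was -1.91 (adjusted p = 0.329) and that of CA1 had too few UMIs for a test.

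Paraffin sections gave 0 Ntf3 UMIs in all 4 replicates of CA1 and of CA3. DG had 0, 3, 4 and 1 UMIs, or 8 in sum. The DG value over the group, 14.6 CPM, was 1.02 times the floor of 3 counts in CA1, 14.3 CPM. It was 1.50 times the same floor in CA3, 9.745 CPM. The counting error of the 8 DG UMIs is not in these ratios, so they are not lower bounds. These counts do not settle whether the regions differed in paraffin sections, nor by how much.

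Over all conditions the mean of Ntf3 was 7.57 ± 11.9 CPM (SD, n = 16) in CA1, 5.05 ± 5.41 in CA3 and 31.1 ± 15.8 in DG. CA1 was lower than DG by -1.54 (SE 0.28, adjusted p = 1.015e-05) and CA3 was lower than DG by -2.29 (SE 0.30, adjusted p = 4.84e-10). Without HCl CA1 replicate 1 these were -2.12 (adjusted p = 2.04e-09 by edgeR) and -2.24 (adjusted p = 1.93e-11). With all replicates CA1 and CA3 differed by 0.75 (SE 0.34, adjusted p = 0.178). In HCl sections alone that last difference was 1.63 (SE 0.56, adjusted p = 0.0629), against 0.04 (SE 0.51, adjusted p = 0.988) in fresh-frozen TE sections, and it passed the threshold over the other conditions without the fresh-frozen TE sections (1.37, adjusted p = 0.0388). Without HCl CA1 replicate 1 it was 0.27 (adjusted p = 0.864) in HCl sections and 0.12 (adjusted p = 0.912) over all conditions, and without HCl CA1 replicate 2 or 3 it became called in HCl sections, with adjusted p of 0.0352 and 0.0228.

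Ntrk2, which encodes the BDNF receptor TrkB, had nearly the same level in the 3 regions. The mean over 16 replicates was 698.5 ± 342.5 CPM (SD) in CA1, 673 ± 307 in CA3 and 643 ± 226 in DG, and the spread came mostly from the conditions. Over all conditions CA1 differed from DG by 0.05 (SE 0.11, adjusted p = 0.800), CA3 from DG by -0.0046 (SE 0.11, adjusted p = 0.993) and CA1 from CA3 by 0.06 (SE 0.11, adjusted p = 0.845). The CA3 to DG sign turned under several alternatives, the largest of which gave 0.13.

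In HCl sections the Ntrk2 values were 869, 800.0, 819 and 621 CPM in CA1, 868, 789, 985 and 879 CPM in CA3 and 840.2, 780.1, 812 and 862 CPM in DG. The 3 regions overlapped. In fresh-frozen TE sections they were 972, 1279, 1218 and 1160.0 CPM in CA1, 924.1, 954, 1051 and 1032 CPM in CA3 and 817, 782, 882 and 923.8 CPM in DG. CA1 lay above DG without overlap there, and CA3 lay above DG by a narrow gap, with 924.1 CPM in the lowest CA3 and 923.8 CPM in the highest DG replicate.

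The CA1 to DG difference of Ntrk2 in these sections was 0.47 (SE 0.14, adjusted p = 0.0190). It lost the call without CA1 replicate 2, DG replicate 1 or DG replicate 2, with adjusted p between 0.0569 and 0.0754. CA3 differed from DG by 0.27 (SE 0.14, adjusted p = 0.276). In the remaining conditions the 3 regions overlapped, with a mean of 543 to 548 CPM per region in fixed frozen and of 279 to 347 CPM in paraffin sections.

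Ntrk3, which encodes the NT-3 receptor TrkC, was higher in DG than in CA1 and CA3. In HCl sections its values were 1172, 1083, 887 and 1135 CPM in DG, 659, 782, 849 and 629 CPM in CA1 and 831, 747.5, 775 and 799 CPM in CA3. All DG replicates lay above all others. In fresh-frozen TE sections DG replicates had 531, 606.5, 540.2 and 571 CPM, CA1 replicates 472, 512, 419 and 429 CPM and CA3 replicates 513, 471, 483.5 and 488.5 CPM, and DG was again above both regions without overlap.

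Fixed frozen sections had Ntrk3 values of 507, 573, 524 and 624 CPM in DG, 507, 359, 401 and 572 CPM in CA1 and 489, 282, 376 and 417 CPM in CA3, so that DG was above CA3 without overlap and overlapped CA1. In paraffin sections the values were 291.5, 267, 417 and 420.1 CPM in DG, 213, 252, 339 and 139 CPM in CA1 and 281, 181, 125.5 and 175 CPM in CA3. DG had the highest mean in both conditions, but its lower replicates reached into the CA1 range in both.

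Over all conditions Ntrk3 was lower in CA1 than in DG by -0.47 (SE 0.11, adjusted p = 0.000454) and lower in CA3 than in DG by -0.46 (SE 0.10, adjusted p = 0.000532). CA1 and CA3 differed by -0.01 (SE 0.11, adjusted p = 0.989). With all replicates thinned to 35932 UMIs, the smallest total, the first call was lost (-0.39, adjusted p = 0.150). The means over 16 replicates were 471 ± 196 CPM (SD) in CA1, 465 ± 228 in CA3 and 634 ± 284 in DG. Within conditions the difference passed the threshold in HCl sections, at -0.54 (SE 0.17, adjusted p = 0.0206) for CA1 and -0.41 (SE 0.13, adjusted p = 0.0444) for CA3.

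Both of these HCl calls for Ntrk3 were narrow. The first was lost without CA1 replicate 1 (adjusted p = 0.0775) or DG replicate 1 (adjusted p = 0.0634), and the second was lost without any 1 of CA3 replicates 1 to 4 and DG replicates 1, 2 and 4, with adjusted p between 0.0890 and 0.144. Thinning to the smallest total gave 0.103 and 0.0505. By edgeR the second was also lost without a filter on low counts (-0.40, adjusted p = 0.0657). The same held with all 3 regions in the fit (-0.39, adjusted p = 0.0926) and after correction for UMI collisions (-0.37, adjusted p = 0.0844). Fresh-frozen TE sections gave -0.26 (SE 0.14, adjusted p = 0.285) for CA1 and -0.15 (SE 0.14, adjusted p = 0.648) for CA3. Fixed frozen sections gave -0.40 (SE 0.19, adjusted p = 0.233) and -0.53 (SE 0.19, adjusted p = 0.0520). Paraffin sections gave -0.52 (SE 0.28, adjusted p = 0.401) and -0.70 (SE 0.29, adjusted p = 0.194). The CA3 call appeared in fixed frozen sections with filterByExpr (-0.50, adjusted p = 0.034), after thinning to the smallest total (-0.74, adjusted p = 0.0292), with the replicate number as a block (-0.55, adjusted p = 0.00628) and after correction for UMI collisions (-0.55, adjusted p = 0.0391). It also appeared without CA3 replicate 1 in fixed frozen (-0.70, adjusted p = 0.0134) and in paraffin sections (-1.10, adjusted p = 0.0290), and without DG replicate 1 in fixed frozen sections (-0.57, adjusted p = 0.0457).

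The region differences were also compared between conditions. A test of all 6 interaction terms of region and condition called 2.69% of 18884 genes and 0 members. Its F was 0.817 for Bdnf (adjusted p = 0.858), 1.88 for Ntf3 (adjusted p = 0.482), 2.08 for Ntrk2 (adjusted p = 0.407) and 1.09 for Ntrk3 (adjusted p = 0.766), and 0 members had an unadjusted p under 0.05. The appearance of the Ntrk2 difference in fresh-frozen TE sections alone was thus not shown to set those sections apart, and DESeq2 was not run for this test.

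Both receptor genes differed between the histological conditions, and between HCl and TE sections they differed in opposite directions. HCl was compared with TE in fresh-frozen sections over 24 replicates with region as a covariate. Ntrk3 was higher with HCl by 0.62 (SE 0.09, adjusted p = 7.01e-08), with a mean over 12 replicates of 862 ± 178 CPM (SD) against 503 ± 54.6 with TE. Ntrk2 was lower with HCl by -0.40 (SE 0.09, adjusted p = 0.000391), at 827 ± 85.2 against 999.6 ± 155 CPM.

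Bdnf was lower with HCl by -0.31 (SE 0.10, adjusted p = 0.0189), at 180.1 ± 68.7 against 205 ± 65.4 CPM, and this call was lost without CA1 (adjusted p = 0.0796) or without DG (adjusted p = 0.232) and after thinning to the smallest total (adjusted p = 0.197). Ntf3 differed by -0.30 (SE 0.29, adjusted p = 0.468), and by -0.70 (adjusted p = 0.0384) without HCl CA1 replicate 1. The comparison called 3 of 4 members and 30.6% of all genes, whose median log2 fold change was 0.10, so that relative to the median the fall of Ntrk2 and Bdnf is larger by that amount and the rise of Ntrk3 smaller. Of the marker genes 4 of 8 for astrocytes were lower with HCl and 1 higher (median -0.24), with mean sums of 3808 to 4962 CPM against 4918 to 6498 with TE. For oligodendrocytes 3 of 6 were higher and 0 lower (median 0.31), and for endothelium 4 of 5 were higher and 0 lower (median 0.87). Their part in the changes of the members was not tested.

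Fixed frozen sections were compared with fresh-frozen sections, both with TE. The pair differs by the fixation of the tissue, and also by library and depth, with median totals of 122520 and 629964 UMIs. Ntrk2 was lower in fixed sections by -0.97 (SE 0.11, adjusted p = 1.35e-12), with a mean of 545 ± 134 CPM (SD, n = 12) against 999.6 ± 155. Bdnf differed by 0.18 (SE 0.12, adjusted p = 0.219), Ntf3 by -0.36 (SE 0.35, adjusted p = 0.415) and Ntrk3 by -0.20 (SE 0.11, adjusted p = 0.117). The median of all genes was -0.39 and 48.7% of genes were called, so that Ntrk2 alone of the 4 lay well below the median and Bdnf lay above it.

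The Ntrk3 value passed the threshold by DESeq2 (-0.21, adjusted p = 0.0202), after correction for UMI collisions (-0.30, adjusted p = 0.0175) and without CA1 (-0.30, adjusted p = 0.0394) or DG (-0.36, adjusted p = 0.0281). Of all 15878 genes tested 5228 were called lower in fixed frozen sections and 2505 higher. Of 8 astrocyte genes 6 were lower and 0 higher (median -1.16). Their mean summed CPM per group was 1768 to 2254 in fixed frozen against 4918 to 6498 in fresh-frozen TE sections. Of 6 oligodendrocyte genes 5 were lower and 1 higher (median -0.81), and of 5 endothelial genes 3 were lower and 0 higher (median -1.48). Of 5 CA2 genes 3 were lower and 1 higher (median -0.74), whereas of 6 granule cell genes 1 was lower and 4 higher (median 0.52). The part of these markers in the Ntrk2 result was not tested.

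Paraffin sections were compared with frozen sections of fixed tissue. All 4 members were lower in paraffin, where 28.0% of genes were called and the median of all genes was 0.05. Bdnf differed by -0.83 (SE 0.18, adjusted p = 9.03e-05), Ntrk2 by -0.90 (SE 0.16, adjusted p = 3.44e-07) and Ntrk3 by -0.91 (SE 0.16, adjusted p = 4.07e-07). The means over 12 replicates fell from 246 ± 86.2 to 156 ± 90.0 CPM (SD) for Bdnf, from 545 ± 134 to 314 ± 102 CPM for Ntrk2 and from 469 ± 102 to 258.5 ± 98.3 CPM for Ntrk3. Thinned to the smallest total, Bdnf was at -0.44 and no longer called (adjusted p = 0.237).

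Ntf3 differed by -1.55 (SE 0.59, adjusted p = 0.0348) from 35 and 8 UMIs, and this call was lost by DESeq2 (adjusted p = 0.318), with the replicate number as a block (adjusted p = 0.0823) and without CA3 (adjusted p = 0.0581). Markers moved as well: 6 of 6 oligodendrocyte genes were higher in paraffin sections (median 1.69), 4 of 6 granule cell genes were lower and 0 higher (median -1.57), and 2 of 5 CA1 genes were lower and 0 higher (median -0.63). Summed CPM of oligodendrocyte genes was 10580 to 16200 per group in paraffin against 2245 to 9876 in fixed frozen sections. The part of these shifts in the lower member levels was not tested.

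**Figure D3:**
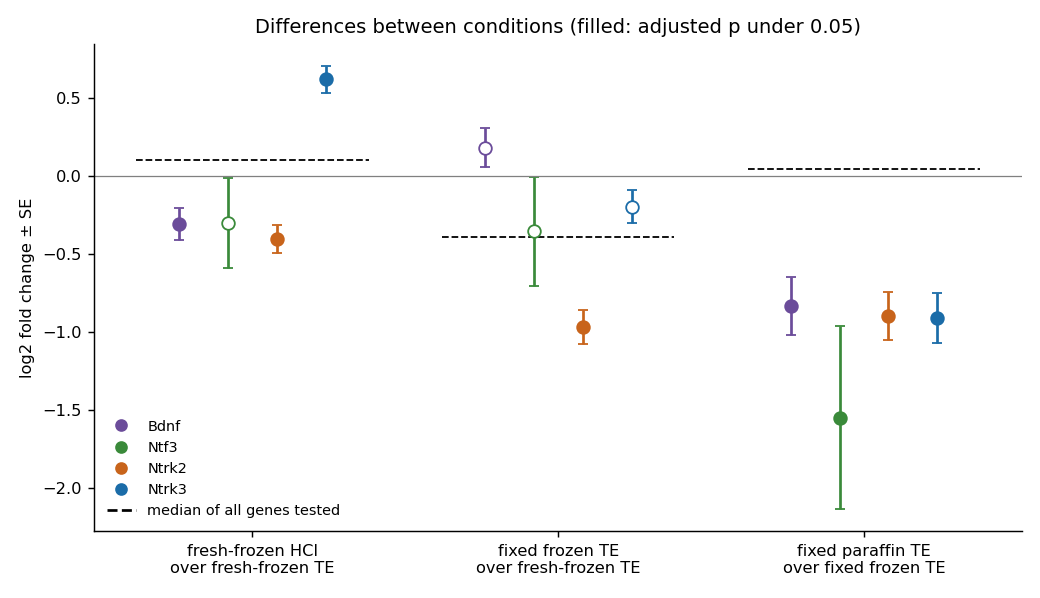
Log2 fold changes (y axis, ± SE) of the 4 genes between pairs of histological conditions over 24 replicates, with region as a covariate. Filled points passed an adjusted p of 0.05 and dashed lines give the median of all genes tested. With HCl over TE, Ntrk3 lies at 0.62 and Ntrk2 at -0.40, and in paraffin all 4 points lie below the median of 0.05.

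The number of Ntrk2 UMIs divided by that of Ntrk3 in the same replicate does not depend on the total. It compares groups and not the abundance of both genes, since 3′ tag counts were not scaled to length or capture. In HCl sections the ratio was 1.07 ± 0.16 (SD, n = 4) in CA1, 1.12 ± 0.10 in CA3 and 0.778 ± 0.094 in DG. In fresh-frozen TE sections it was 2.54 ± 0.36, 2.03 ± 0.16 and 1.52 ± 0.16. In each region all TE replicates lay above all HCl replicates.

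In fixed frozen sections the Ntrk2 to Ntrk3 ratio was 1.20 ± 0.25 in CA1, 1.405 ± 0.42 in CA3 and 0.986 ± 0.19 in DG. In paraffin sections it was 1.33 ± 0.32, 1.64 ± 0.74 and 1.01 ± 0.25. These paraffin means rested on 53, 65 and 193 Ntrk3 UMIs, with 6 and 7 in CA3 replicates 3 and 4. They were therefore not read as an order of CA1 and CA3. DG had the lowest mean ratio in all 4 conditions, and only in fresh-frozen tissue did its replicates lie below those of CA1 and CA3 without overlap. The UMIs had 6 bases and thus 4096 different sequences, and the highest count of a member, 1061 UMIs of Ntrk2, took 25.9% of them. A correction for UMIs drawn more than once would raise that count to 1228, so high counts of both receptors in deep replicates are somewhat low.

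**Figure D4:**
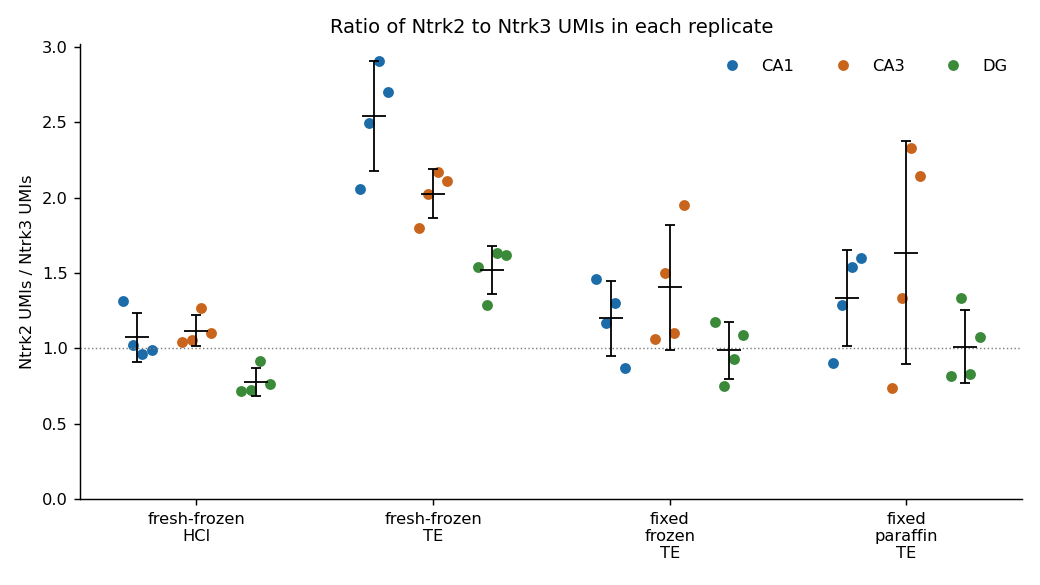
Ratio of Ntrk2 to Ntrk3 UMIs (y axis, linear) in each replicate, by condition (x axis) and region (colour), with mean ± SD in black and a dotted line at 1. In each region the replicates of fresh-frozen TE sections lie above those of HCl sections, with means of 1.52 to 2.54 against 0.778 to 1.12, and in CA3 and DG they overlap those of paraffin sections.

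The other genes of the pathway were described by role over all conditions, with counts of called genes and the median log2 fold change of each list. The medians of all genes tested were -0.01 for CA1 over DG, -0.03 for CA3 over DG and 0.02 for CA1 over CA3, and 18.0%, 14.3% and 9.25% of them were called. Of 4 ligand genes, only the members Bdnf and Ntf3 were called in these comparisons. The ligands' medians were -0.94, -0.51 and -0.29.

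Of 8 receptor and sortilin-family genes 7 were tested. Between CA1 and DG 2 were higher in CA1 and 3 lower (median 0.05). Sorcs3 and Sorcs1, sortilin-related sorting receptors, were higher by 0.90 (SE 0.16, adjusted p = 3.17e-06) and 1.26 (SE 0.33, adjusted p = 0.00252), and Ngfr, the p75 receptor, was lower by -1.99 (SE 0.69, adjusted p = 0.0387) at 0.0718 and 1.32 CPM. Between CA3 and DG 1 was higher and 1 lower (median -0.0046): Sort1, the sortilin gene, was higher by 0.40 (SE 0.10, adjusted p = 0.00273) and Ntrk3 lower. Between CA1 and CA3 Sorcs3 was higher by 0.71 (SE 0.15, adjusted p = 0.000273) and 0 were lower (median -0.01).

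Of 9 genes of proneurotrophin processing 8 were tested. In CA1 against DG 0 were higher and 1 lower (median -0.24), in CA3 against DG 1 was higher and 0 lower (median 0.05), and in CA1 against CA3 0 were higher and 3 lower (median -0.16). The proprotein convertase Pcsk5 was lower in CA1 than in DG by -1.55 (SE 0.24, adjusted p = 1.91e-07) and lower than in CA3 by -1.002 (SE 0.24, adjusted p = 0.00193). Furin, the convertase of the secretory pathway, and Cpe, which also acts in sorting proBDNF into granules, were lower in CA1 than in CA3 by -0.63 (SE 0.16, adjusted p = 0.00337) and -0.47 (SE 0.10, adjusted p = 0.000488). Cpe was higher in CA3 than in DG by 0.43 (SE 0.10, adjusted p = 0.000956).

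Of 6 receptor partners 5 were tested, with 1 higher and 1 lower between CA1 and DG (median -0.02), 1 higher and 0 lower between CA3 and DG (median -0.13) and 0 higher and 1 lower between CA1 and CA3 (median -0.22). Lingo1, a co-receptor of p75, was higher in CA3 than in DG by 1.17 (SE 0.12, adjusted p = 4.19e-14), higher in CA1 than in DG by 0.65 (SE 0.13, adjusted p = 2.52e-05) and lower in CA1 than in CA3 by -0.52 (SE 0.12, adjusted p = 0.000697). Bex3, which binds the p75 death domain, was lower in CA1 than in DG by -0.39 (SE 0.12, adjusted p = 0.01235).

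Most adaptor genes did not pass the test. All 19 were tested, with 1 higher and 3 lower in CA1 than in DG (median -0.10), 2 higher and 1 lower in CA3 than in DG (median 0.11) and 0 higher and 1 lower in CA1 than in CA3 (median -0.01). The 4 of 19 called between CA1 and DG lie near the background of 18.0%, as do the 3 of 19 between CA3 and DG near 14.3%. The docking protein gene Gab1 was higher than in DG in CA1 by 0.82 (SE 0.20, adjusted p = 0.00147) and in CA3 by 0.74 (SE 0.20, adjusted p = 0.003865), and the phospholipase gene Plcg2 was lower than in DG by -1.003 (SE 0.36, adjusted p = 0.0372) and -1.255 (SE 0.35, adjusted p = 0.00547). The adaptor genes Grb2, lower in CA1 than in DG by -0.43 (SE 0.11, adjusted p = 0.0032), and Shc3, higher in CA3 than in DG by 1.49 (SE 0.53, adjusted p = 0.0437), were also called. Shc3 had a mean of only 1.42 CPM in DG, so its fold change rested on few UMIs. Rapgef1, a guanine nucleotide exchange factor gene, was lower in CA1 than in CA3 by -0.50 (SE 0.14, adjusted p = 0.01235).

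Of 14 Ras-MAPK genes 1 was higher and 3 were lower in CA1 than in DG (median -0.21), 1 higher and 1 lower in CA3 than in DG (median -0.03) and 0 higher and 3 lower in CA1 than in CA3 (median -0.27). Map2k1, the MEK1 kinase, was lower in CA1 than in DG by -1.025 (SE 0.11, adjusted p = 1.74e-13) and lower than in CA3 by -0.79 (SE 0.11, adjusted p = 1.06e-08). Mapk3, the ERK1 kinase, was lower than in DG by -1.14 (SE 0.22, adjusted p = 3.25e-05) in CA1 and by -0.74 (SE 0.21, adjusted p = 0.005935) in CA3. Nras, a Ras GTPase gene, was higher than in DG by 0.67 (SE 0.20, adjusted p = 0.00838) in CA1 and by 0.88 (SE 0.19, adjusted p = 0.00017) in CA3. Rps6ka3, a ribosomal S6 kinase gene, was lower in CA1 than in CA3 by -0.72 (SE 0.20, adjusted p = 0.0091).

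Of 10 PI3K-AKT genes 2 were higher and 1 lower in CA1 than in DG (median 0.08), 1 higher and 1 lower in CA3 than in DG (median 0.04) and 1 higher and 1 lower in CA1 than in CA3 (median -0.0050). Pik3cb, a catalytic subunit, was lower than in DG by -0.77 (SE 0.19, adjusted p = 0.00137) in CA1 and by -0.79 (SE 0.18, adjusted p = 0.000699) in CA3. The regulatory subunit genes Pik3r2 and Pik3r1 were higher in CA1 than in DG by 1.25 (SE 0.32, adjusted p = 0.00247) and 0.60 (SE 0.16, adjusted p = 0.00312). Pik3r1 was also higher in CA1 than in CA3 by 0.81 (SE 0.16, adjusted p = 4.7e-05).

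Of 11 regulators of Bdnf transcription 0 were higher and 3 lower in CA1 than in DG (median -0.21), 0 higher and 3 lower in CA3 than in DG (median -0.09) and 1 higher and 0 lower in CA1 than in CA3 (median 0.12). The transcription factor gene Mef2c was lower than in DG by -0.45 (SE 0.13, adjusted p = 0.00870) in CA1 and by -1.01 (SE 0.13, adjusted p = 1.21e-09) in CA3, and higher in CA1 than in CA3 by 0.56 (SE 0.14, adjusted p = 0.00268). Hdac2, a histone deacetylase, was lower than in DG by -0.56 (SE 0.12, adjusted p = 0.000338) in CA1 and by -0.47 (SE 0.12, adjusted p = 0.00218) in CA3. Mef2d, a relative of Mef2c, was lower in CA1 than in DG by -0.52 (SE 0.19, adjusted p = 0.0498).

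Many genes known to be induced by BDNF, and by neuronal activity in general, were higher in CA1, where Bdnf was lowest. Of 15 such genes, all tested, 9 were higher and 0 lower in CA1 than in DG (median 0.65), 4 higher and 0 lower in CA3 than in DG (median 0.20) and 6 higher and 0 lower in CA1 than in CA3 (median 0.46). The backgrounds were 18.0%, 14.3% and 9.25% of genes. Egr1, an immediate early transcription factor gene, exceeded DG in CA1 by 2.27 (SE 0.18, adjusted p = 2.92e-20) and exceeded CA3 by 1.28 (SE 0.16, adjusted p = 2.05e-10). Fos in CA1 exceeded DG by 2.24 (SE 0.38, adjusted p = 1.44e-06) and Nr4a1 by 1.78 (SE 0.22, adjusted p = 7.28e-11). Against CA3 the CA1 values were 1.58 for Nr4a1 (SE 0.21, adjusted p = 6.69e-10) and 1.265 for Fos (SE 0.32, adjusted p = 0.00301). CA3 lay above DG by 0.99 for Egr1 (SE 0.20, adjusted p = 5.74e-05), by 0.66 for Vgf (SE 0.13, adjusted p = 9.31e-05), which encodes a secreted neuropeptide precursor, and by 0.60 for Dusp6 (SE 0.16, adjusted p = 0.00458), which encodes an ERK phosphatase. The list was chosen with results of these data known, and many of its genes also respond to activity through other receptors.

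Genes whose pattern was most like that of each member were ranked over the 12 groups by Pearson's r of mean log2(CPM + 10), centred within condition, among genes with a mean of at least 20 CPM. The points share libraries, so r is a description. For Bdnf they were Islr2 (0.984), Cacna1c (0.980) and Olfm1 (0.969) among 7422 genes, and for Ntf3 Hnrnpu (0.962), Fads1 (0.961) and Nfib (0.960) among 7423. For Ntrk2 they were Tspyl3 (0.894), Hipk4 (0.894) and Bmpr2 (0.891), and for Ntrk3 the noncoding Snhg14 (0.978), Gm37629 (0.976) and Cygb (0.972). Among the members r was 0.818 for Ntf3 with Ntrk3, 0.340 for Bdnf with Ntf3, 0.281 for Ntrk2 with Ntrk3, 0.241 for Bdnf with Ntrk3, -0.141 for Ntf3 with Ntrk2 and -0.194 for Bdnf with Ntrk2.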

How the data were processed

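UMIs were counted in 48 replicates of 12 libraries made by PIC and CEL-seq2. Per the paper and the submitters' processing notes, the authors extracted barcodes and 6-base UMIs by UMI-tools 1.0.0, trimmed with Trim Galore!, mapped to GRCm38 by HISAT2 2.1.0 and assigned reads to genes with featureCounts 1.6.4 without a strand option. The deposited table holds raw UMI counts of 32546 genes without normalization. The release of their annotation is not given in the sources used here, and a table of barcodes was not used. Replicate columns were matched to libraries by region, condition and replicate number.

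Here CPM were UMIs per 1000000 UMIs of the replicate. Differences were tested with edgeR 4.0.16 (R 4.3.3) by the quasi-likelihood test with TMM normalization, on genes whose replicates in the fit held 10 UMIs or more together. Benjamini-Hochberg adjustment covered every gene tested, and calls required an adjusted p under 0.05. Regions were compared within a condition on 8 replicates and over all conditions on 48 with condition as a covariate, conditions on 24 with region as a covariate, and the interaction on 48. Fold changes are log2, first group over second, and SE come from the fit. The scripts were tested on simulated data. The 4 members, role lists, marker lists and tests were chosen with earlier results of these data known. Genes named from a role list are among its up to 3 called genes with the largest change per comparison, and some are counted but not reported by name here.

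Replicate numbers were taken to pair replicates where every same-number correlation of deviations was over 0.1. This held in 4 of 12 comparisons, CA3 with DG under HCl and the 3 in fresh-frozen TE sections, and there the block changed no call. The cut left out weaker pairing, as in CA1 with DG of paraffin sections, with 0.072 to 0.286 for same numbers against -0.216 to 0.021 for others. In some of the comparisons left out the block added calls, which are given below. Alternatives were DESeq2 1.42.0, its size factors in edgeR, other filters, the block, thinning to the smallest total, leaving out each replicate, region or condition, and, chosen after seeing the data, a correction for UMI collisions and the omission of HCl CA1 replicate 1. Floors of 3 counts cover counting error only.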

Additional observations from a re-analysis of the deposited data

Results flagged for a closer look

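In 3 of 48 groups of 4 replicates 1 value stood apart from the rest by Dixon's criterion. Chance passes it in about 1 in 20 groups of normally distributed values, a rate that need not hold for low counts. Ntf3 in paraffin CA1 and CA3 was 0 throughout and could not be flagged. Ntf3 in HCl CA1 was 43.78 CPM in replicate 1 and 6.557 to 7.858 CPM in the others. The CA2 and CA3 marker sums of that replicate were also the highest of its group, and its granule cell sum was not. Ntf3 in fixed frozen CA1 was 17.05 CPM in replicate 3, from 2 UMIs, and 0 in the others, a pattern that always passes the criterion. Bdnf in fixed frozen DG was 250.7 CPM in replicate 2, the deepest replicate of its condition, and 283.3 to 284.6 CPM in the others.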

How the results depend on the processing

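Of 132 alternative values between regions over all conditions 112 kept direction and side of the threshold, of 694 within a condition 620, of 110 between conditions 96 and of 20 for the interaction all 20. The 20 that changed over all conditions were 18 turned signs, all of differences that were not called, 1 lost and 1 gained call. The cause of the changes below was not tested, except that fewer UMIs or replicates enter after thinning or leaving some out. For 12 values, all of Ntf3 or Bdnf, there was no adjusted p. For Ntf3 against DG in fixed frozen sections DESeq2 gave none, and for the others too few UMIs remained for a test. Ntf3 rested on 315 UMIs in all. The share of all genes called was kept for the main fits only. A change in the number of members called under an alternative was therefore not shown to be particular to the members.

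By DESeq2 0 members were called in each of the 3 fixed frozen comparisons, where it gave no adjusted p for Ntf3. Ntf3 CA1 over CA3 in fresh-frozen TE sections turned to -0.0789. Ntrk2 CA1 over DG in paraffin turned to 0.02277 and Ntrk2 CA3 over DG over all conditions to 0.02485. Ntrk3 fixed over fresh-frozen became called at -0.2147, and Ntf3 paraffin over fixed frozen was lost at -0.9958. With DESeq2 size factors in edgeR the last was also lost at -1.406 (adjusted p = 0.058), and Ntrk2 CA1 over DG in paraffin (0.06548), Ntrk2 CA3 over DG (0.01155) and Ntrk3 CA1 over CA3 (0.03476) over all conditions turned. With filterByExpr 1 member was called between CA1 and DG in fixed frozen sections, where Ntf3 was no longer tested, Ntrk3 CA3 over DG became called there (-0.5002, adjusted p = 0.034), and Ntrk2 CA1 over DG turned there (0.01001) and in paraffin (0.1001). Without a filter 1 member was called for CA3 over DG and 2 for CA1 over CA3 with HCl, Ntrk2 CA3 over DG turned to 0.01556, and Ntf3 paraffin over fixed frozen was lost at -1.522 (adjusted p = 0.0501). With all 3 regions in the fit 1 member was called for CA3 over DG and 2 for CA1 over CA3 with HCl. With the UMI collision correction 1 member was called for CA3 over DG with HCl and 2 in fixed frozen sections, Ntrk2 CA3 over DG turned to 0.05687, and Ntrk3 fixed over fresh-frozen became called at -0.2997.

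Thinning to the smallest total left 1 member called for CA1 over DG and 1 for CA3 over DG with HCl, 0 for CA3 over DG with TE in fresh-frozen sections, and 0 for CA1 over DG and 0 for CA1 over CA3 in fixed frozen sections. Ntrk2 CA1 over DG turned in fixed frozen (0.07446) and paraffin sections (0.02945), and over all conditions Bdnf CA3 over DG (-0.09962), Ntrk2 CA3 over DG (0.07215) and Ntrk3 CA1 over CA3 (0.1161) turned. Lost calls were Ntrk3 CA1 over DG over all conditions (-0.3858), Bdnf HCl over TE (-0.2801) and Bdnf paraffin over fixed frozen (-0.44). Ntrk3 CA3 over DG in fixed frozen sections became called (-0.7411, adjusted p = 0.0292) as Ntf3 lost its call.

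With the replicate number as a block 2 members were called for CA1 over CA3 with HCl, where Ntf3 became called (1.452, adjusted p = 0.0324), and 2 for CA3 over DG in fixed frozen sections, where Ntrk3 did (-0.5463, adjusted p = 0.00628). Ntf3 CA1 over DG with HCl became called (-1.038, adjusted p = 0.0323). Ntf3 CA1 over CA3 with TE in fresh-frozen sections turned to -0.0211, Ntrk2 CA3 over DG over all conditions to 0.007331, and Ntf3 paraffin over fixed frozen was lost at -1.537. The block changed no other call. Same-number correlations ranged from 0.001 to 0.433, and 35 of 48 replicates correlated best with their own number, a hint from the data and not the design.

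Without fresh-frozen TE sections Ntrk2 CA1 over DG (-0.1023), Ntrk2 CA1 over CA3 (-0.04151) and Ntrk3 CA1 over CA3 (0.02542) turned and Ntf3 CA1 over CA3 became called (1.371). Without HCl Bdnf CA3 over DG (-0.03535) and Ntrk3 CA1 over CA3 (0.05393) turned, and Ntrk2 CA3 over DG turned without fixed frozen (0.09082) or paraffin sections (0.1286). Without HCl CA1 replicate 1, Ntrk2 CA3 over DG (0.02837) and Ntrk3 CA1 over CA3 (0.01842) turned and Ntf3 HCl over TE became called (-0.6971). Without CA1 Bdnf HCl over TE was lost (-0.2653) and Ntrk3 fixed over fresh-frozen became called (-0.3045), as without DG (-0.2183 and -0.3646), and without CA3 Ntf3 paraffin over fixed frozen was lost (-1.489).

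Leaving out each replicate in turn, members called with HCl ranged from 1 to 2 in each comparison. In fixed frozen sections they ranged from 0 to 2 against DG and from 0 to 1 between CA1 and CA3, and in paraffin sections from 0 to 1 for CA3 over DG. Values ranged from -0.6648 to 0.3657 for Ntf3 CA1 over CA3 with TE in fresh-frozen sections. In fixed frozen sections they ranged for Ntrk2 from -0.1997 to 0.08927 in CA1 over DG, from -0.2333 to 0.02824 in CA3 over DG and from -0.164 to 0.1863 in CA1 over CA3, for Bdnf from -0.04388 to 0.3318 in CA3 over DG, and for Ntrk3 from -0.0069 to 0.3196 in CA1 over CA3. In paraffin sections Ntrk2 ranged from -0.4323 to 0.1224 in CA1 over DG and from -0.09041 to 0.442 in CA1 over CA3.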
